A study of Mus musculus with 21 samples.

Results

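*Gpnmb*, *Cd5l*, *Trem2*, *Lpl*, *Fabp5*, *Apoe*, *Lgals3*, *Mmp12*, *Cd36* and *Cd9* are genes of lipid-associated macrophages, and they were followed here in the podocyte fraction of aging mouse kidneys. The 10 genes are 10 of the 27179 genes counted in each library, and all 10 were among the 16377 genes that passed the filter on low counts. They were chosen by name, and the set was chosen because *Gpnmb* and *Cd5l* were much higher in saline-treated mice, so the difference between saline and young mice is given below as a description with no test.

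Lipid-associated macrophages are macrophages that take up lipid from dying cells, myelin, fat tissue or plaques and switch on a shared set of genes. TREM2 is their lipid-sensing surface receptor, which signals through the adaptor TYROBP. APOE carries the exported lipid, LPL releases fatty acids from lipoproteins, CD36 takes them up, and FABP5 carries them inside the cell. GPNMB is a membrane glycoprotein of phagocytes that handle much lysosomal cargo, and CD5L is a secreted protein of resident macrophages that circulates bound to IgM.

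The study compared wildtype male C57BL/6J mice in 3 groups, with 1 library from each mouse. Young mice were 4 months old and untreated (n = 6). Middle-aged mice were 19.5 months old and had received repeated injections of saline (n = 7) or of MCC950 (n = 8), a small molecule inhibitor of the NLRP3 inflammasome, the cytosolic complex that activates caspase-1 in macrophages and other cells. The young mice had no injections, so age and injection cannot be told apart in a comparison with them. The cells were taken from minced and digested kidney cortex by magnetic selection for nephrin, a podocyte surface protein.

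Library totals ranged from 27375870 to 36827823 counts in young, from 45772937 to 84876399 in saline and from 35440472 to 58247271 in MCC950 mice. The median share of counts from mitochondrial genes was 71.1% in young, 68.6% in saline and 57.5% in MCC950 libraries. The fraction held other cells beside podocytes: all 10 podocyte markers, all 10 proximal tubule markers and all 15 macrophage and myeloid markers were detected in each group. By the quasi-likelihood test of edgeR, 9 of 10 podocyte markers were lower in saline than in young mice, beside 12.4% of all tested genes. Levels are given as CPM, counts scaled to a common library size by the TMM method, and in such bulk libraries fewer cells of a type and less RNA per cell cannot be told apart.

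The promoters of the 3 genes that differed most between saline and young mice are shown because those genes were high in the same groups of mice. Each sequence runs from 250 bases before to 50 bases after the RefSeq transcription start on GRCm38.p6, on the plus strand, and the capitals mark matches to the motifs named in the next paragraph. The windows are chr6:49036268-49036567 for *Gpnmb*, chr3:87357631-87357930 for *Cd5l* and chr17:48346151-48346450 for *Trem2*.
Gpnmb: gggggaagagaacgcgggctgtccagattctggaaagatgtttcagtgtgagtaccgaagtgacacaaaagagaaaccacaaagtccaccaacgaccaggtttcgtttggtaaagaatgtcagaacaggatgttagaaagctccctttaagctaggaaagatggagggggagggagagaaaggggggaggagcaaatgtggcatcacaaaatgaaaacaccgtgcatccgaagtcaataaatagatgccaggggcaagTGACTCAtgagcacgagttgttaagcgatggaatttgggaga
Cd5l: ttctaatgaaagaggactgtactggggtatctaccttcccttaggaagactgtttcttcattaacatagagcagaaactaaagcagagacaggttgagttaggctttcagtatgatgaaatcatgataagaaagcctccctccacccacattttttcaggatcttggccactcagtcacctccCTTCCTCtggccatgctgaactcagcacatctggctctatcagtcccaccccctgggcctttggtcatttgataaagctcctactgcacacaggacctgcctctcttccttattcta
Trem2: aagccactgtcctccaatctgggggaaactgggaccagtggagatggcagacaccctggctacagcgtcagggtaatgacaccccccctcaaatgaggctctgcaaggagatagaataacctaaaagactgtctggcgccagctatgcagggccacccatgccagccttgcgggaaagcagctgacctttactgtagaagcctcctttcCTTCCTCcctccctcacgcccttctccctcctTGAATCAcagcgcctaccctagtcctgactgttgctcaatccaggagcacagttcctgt

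The windows were searched on both strands for 6 motifs. These were the E-box CACGTG and the M-box CATGTG of MITF and its relatives, a site of the myeloid factor PU.1 (GAGGAAG), an AP-1 site (TGANTCA), a MAF half-site (TGCTGAC) and the TATA box (TATAAA). The *Cd5l* window held the PU.1 site on the minus strand, starting 67 bases before the transcription start. The *Trem2* window held the PU.1 site on the minus strand, 41 bases before the start, and an AP-1 site 9 bases before the start. The *Gpnmb* window held an AP-1 site that began 8 bases after the start, and none of the 3 windows held the E-box or the M-box. Of all 32851 RefSeq promoters of this length, 13.6% held the PU.1 site, 7.81% the AP-1 site, 7.15% the E-box and 14.2% the M-box. A match describes the letters in the window and is no evidence of binding. RefSeq promoters were found for 8 of the 10 genes, with no entry for *Lpl* and *Fabp5*.

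*Gpnmb* was close to 0 in young mice and stood higher in every saline-treated mouse. On mouse chromosome 6 (GRCm38.p6, 49036518 to 49058182, plus strand), it had 53 counts in all 6 young libraries together and 3066 in the 7 saline libraries. Its level was 0.146 CPM at the lowest, 0.342 at the median and 0.561 at the highest in young mice. In saline mice it was 3.30 CPM at the lowest, 7.76 at the median and 11.8 at the highest, so that the groups did not overlap. The fitted log2 difference, saline minus young, was 4.53 (SE 0.486).

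MCC950-treated mice lay between the other groups for *Gpnmb*. Their lowest library had 0.742 CPM, the median was 2.21 CPM and the highest library had 5.06 CPM. All 8 MCC950 libraries lay above all 6 young libraries, and 5 of 8 lay below every saline library, while 3 fell in the saline range. Compared with saline, *Gpnmb* was lower in MCC950 mice by a log2 difference of -1.45 (SE 0.341, adjusted p = 0.00928, edgeR quasi-likelihood test with Benjamini-Hochberg adjustment over 16377 genes), which corresponds to a 2.73-fold lower level. Compared with young mice, it was still higher in MCC950 mice, by 3.08 (SE 0.475, adjusted p = 5.97e-05). The saline libraries that chose the gene also stand in the comparison with MCC950, and the young libraries in the comparison of MCC950 with young.

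*Cd5l* had the largest difference between saline and young mice among the 10 genes. It lies on chromosome 3 (87357881 to 87371074, plus strand), and the young libraries held 11 of its counts in all, with 3 of 6 libraries at 0 and a highest value of 0.337 CPM. The saline libraries ranged from 2.21 CPM (replicate 5) through a median of 12.1 to 54.6 CPM (replicate 7), and the next highest saline library had 14.5 CPM. The fitted log2 difference was 7.94 (SE 1.13), a number that depends on how the fit treats libraries at 0. The ratio of the group means was 197, and without saline replicate 7 it was 123.2, with a fitted difference of 7.26 (SE 1.01).

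In MCC950 mice, *Cd5l* ranged from 1.25 CPM through a median of 5.56 to 24.9 CPM. These 8 libraries lay above all young libraries and spread over the saline range. The difference from saline did not pass the test (log2 -0.76, SE 0.577, adjusted p = 0.391, edgeR), and it was -0.08 (SE 0.543, adjusted p = 0.938) without saline replicate 7. The difference from young did (log2 7.18, SE 1.13, adjusted p = 7.02e-05, edgeR). Whether MCC950 and saline differed more for *Gpnmb* than for *Cd5l* was not tested.

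**Figure D1:**
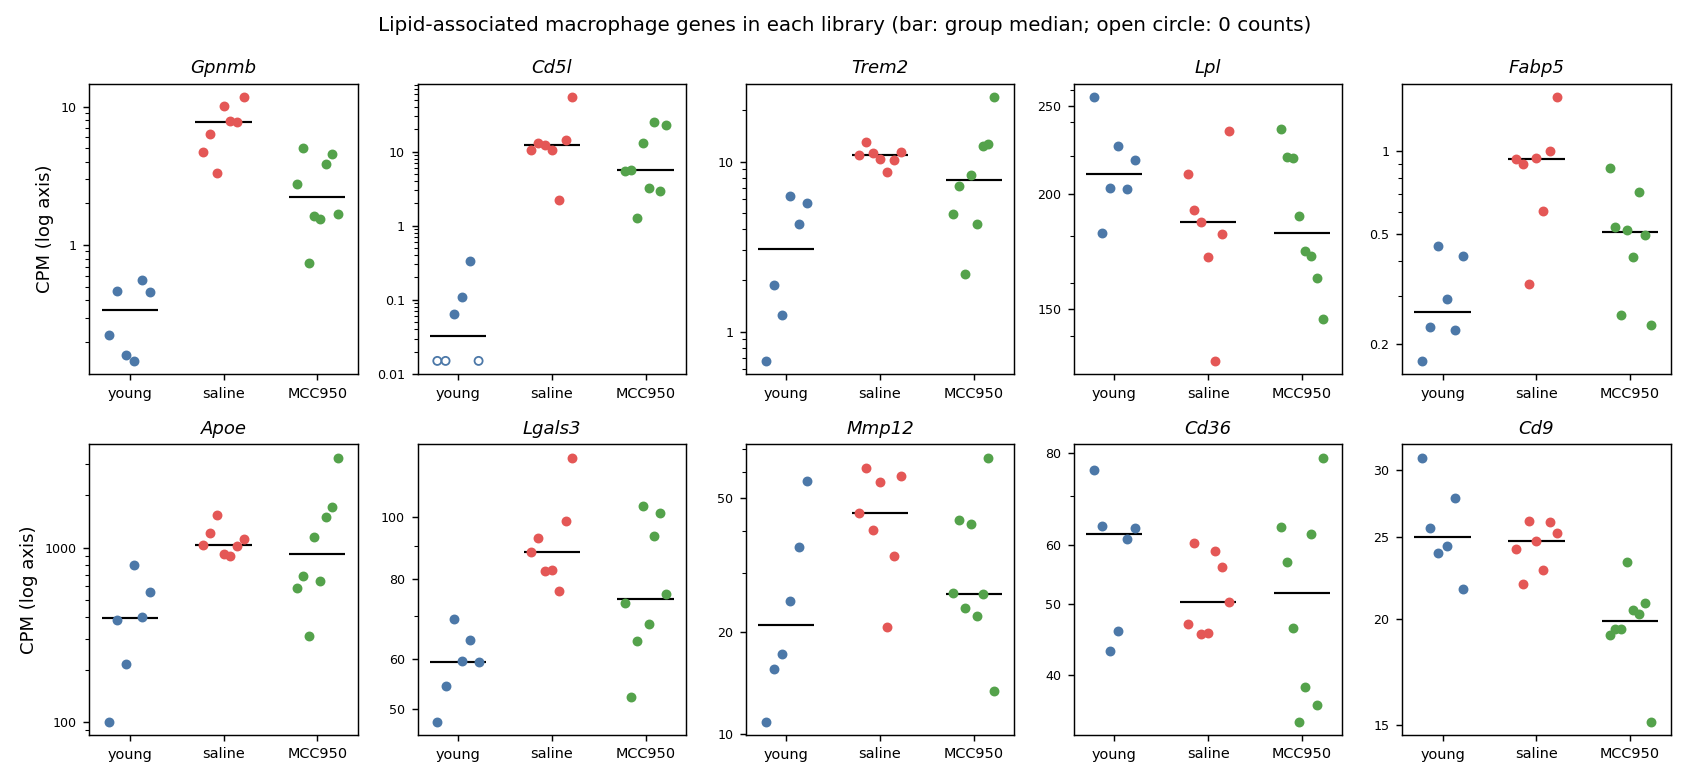
CPM of each gene on a log axis, with 1 point per library (6 young, 7 saline, 8 MCC950), a bar at the group median and open circles for libraries with 0 counts. *Gpnmb*, *Cd5l*, *Trem2*, *Apoe* and *Lgals3* do not overlap between young and saline mice, while *Lpl* and *Cd36* overlap in all groups and *Cd9* is lowest in MCC950 mice on this TMM scale.

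*Trem2* and *Apoe*, the receptor and the lipid carrier, were also higher in every saline mouse than in every young mouse. *Trem2* (chromosome 17, 48346401 to 48352276, plus strand) ranged from 0.672 through 3.08 to 6.27 CPM in young mice. In saline mice its range was narrow, from 8.69 through 10.9 to 12.96 CPM, and above every young library. In MCC950 mice the range was wide, from 2.18 (replicate 3) through 7.76 to 24.1 CPM (replicate 8), and it took in the whole saline range. The fitted log2 difference was 1.72 (SE 0.484) for saline minus young. It was 1.54 for MCC950 minus young (SE 0.473, adjusted p = 0.0147, edgeR) and -0.19 for MCC950 minus saline (SE 0.413, adjusted p = 0.793).

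*Apoe* (chromosome 7, 19696244 to 19701310, minus strand) ran from 101 through 394 to 795 CPM in young mice and from 895 through 1038 to 1546 CPM in saline mice, again without overlap. The MCC950 libraries ran from 313 (replicate 3) through 921 to 3281 CPM (replicate 8). *Apoe* was higher in MCC950 than in young mice by 1.59 on the log2 scale (SE 0.449, adjusted p = 0.00867, edgeR). The difference from saline was 0.15 (SE 0.411, adjusted p = 0.833), and without MCC950 replicate 8 it was -0.24 (SE 0.367, adjusted p = 0.698). Within the MCC950 group, this library was highest for both genes and for the summed 15 macrophage markers, at 5162 CPM.

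*Fabp5* was higher in most saline mice than in every young mouse, and *Lgals3* was higher in all of them. *Fabp5*, a fatty acid binding protein of 4 to 83 counts per library, had a median of 0.262 CPM in young (0.174 to 0.452), 0.936 CPM in saline (0.330 to 1.57) and 0.510 CPM in MCC950 mice (0.235 to 0.866). Near-identical gene copies elsewhere in the genome can share its reads, so its level is uncertain. Its log2 difference was 1.59 (SE 0.359) for saline minus young, -0.83 for MCC950 minus saline (SE 0.294, adjusted p = 0.0560, edgeR) and 0.76 for MCC950 minus young (SE 0.356, adjusted p = 0.0960). *Fabp5* therefore had the same order of groups as *Gpnmb*, but neither comparison with MCC950 passed the threshold in edgeR. Against saline it passed with DESeq2 (adjusted p = 0.0303) and limma-voom (adjusted p = 0.0490), and in 7 of 33 settings in all, with adjusted p from 0.0284 to 0.353.

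*Lgals3* encodes galectin-3, a secreted sugar-binding protein of activated macrophages that is also made by collecting duct cells. Its level ran from 47.8 through 59.3 to 69.2 CPM in young and from 76.7 through 88.0 to 124 CPM in saline mice, so that these groups did not overlap. The MCC950 libraries ran from 52.3 through 74.5 to 104 CPM and covered the gap. The log2 difference was 0.64 (SE 0.147) for saline minus young. For MCC950 minus young it was 0.42 (SE 0.142, adjusted p = 0.0239, edgeR), and for MCC950 minus saline -0.22 (SE 0.135, adjusted p = 0.272).

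*Mmp12*, the macrophage metalloelastase, had a higher median in saline mice with groups that overlapped. Its level ran from 10.9 through 20.99 to 56.4 CPM in young, from 20.7 through 45.1 to 61.6 CPM in saline and from 13.4 through 26.1 to 66.2 CPM in MCC950 mice. The log2 difference was 0.76 (SE 0.369) for saline minus young, and neither comparison with MCC950 passed the test (adjusted p = 0.372 against saline and 0.526 against young, edgeR).

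The lipid uptake genes *Lpl* and *Cd36* did not share this pattern. *Lpl*, lipoprotein lipase, ran from 182 through 211 to 256 CPM in young, from 132 through 187 to 234 CPM in saline and from 146 through 181 to 236 CPM in MCC950 mice. *Cd36*, the fatty acid translocase, ran from 43.1 through 62.2 to 75.8 CPM in young, from 45.5 through 50.4 to 60.4 CPM in saline and from 34.6 through 51.7 to 78.9 CPM in MCC950 mice. All 3 groups overlapped for each gene. The log2 differences for saline minus young were -0.20 (SE 0.126) for *Lpl* and -0.18 (SE 0.174) for *Cd36*. Against saline, the MCC950 mice differed by 0.02 (SE 0.117, adjusted p = 0.922, edgeR) for *Lpl* and by 0.00 (SE 0.162, adjusted p = 0.988) for *Cd36*.

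*Cd9*, a tetraspanin of the plasma membrane found on many cell types, overlapped between young and saline mice and was lower with MCC950 on the TMM scale. Its level ran from 21.7 through 25.0 to 31.0 CPM in young, from 21.98 through 24.7 to 26.1 CPM in saline and from 15.2 through 19.9 to 23.3 CPM in MCC950 mice, where 7 of 8 libraries lay below every saline library. *Cd9* was lower in MCC950 than in saline mice by a log2 difference of -0.30 (SE 0.0808, adjusted p = 0.0157, edgeR), which turned to 0.12 (adjusted p = 0.604) when libraries were scaled by their total counts. Against young mice the difference was -0.38 (SE 0.0845, adjusted p = 0.00162), and -0.04 (adjusted p = 0.866) by total counts. Scaling by total counts, which include the mitochondrial genes, moved the median of all genes by 0.42 in MCC950 minus saline and by 0.36 in MCC950 minus young.

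**Figure D2:**
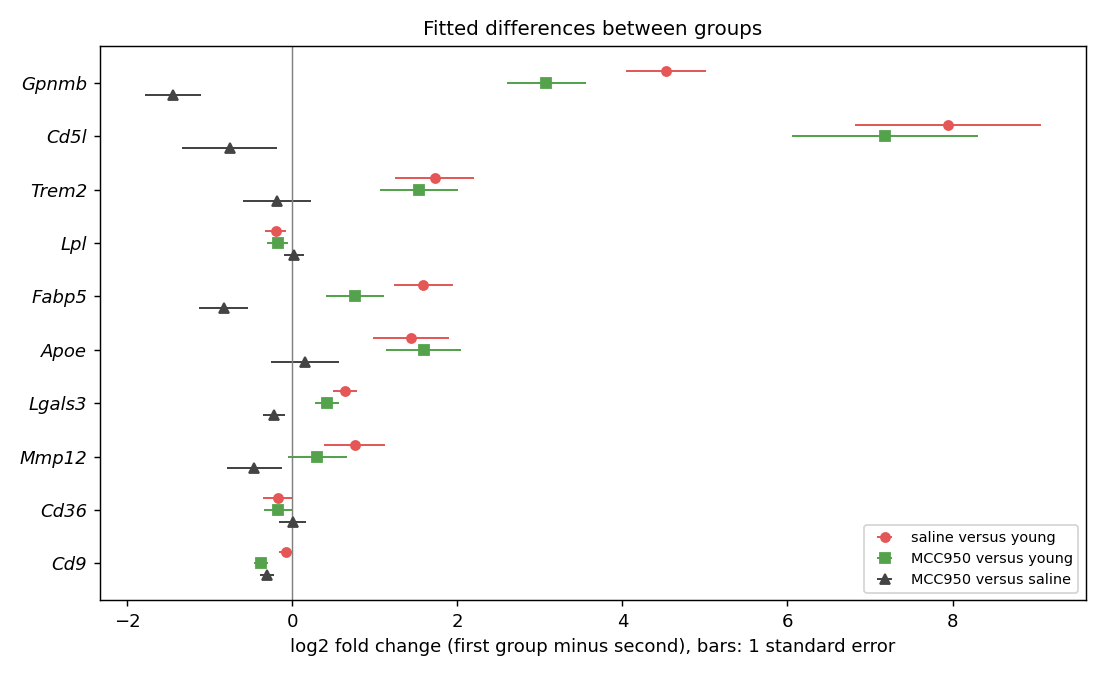
Fitted log2 fold change of each gene in the 3 comparisons, with bars of 1 standard error. *Gpnmb* stands at 4.53 in saline minus young, 3.08 in MCC950 minus young and -1.45 in MCC950 minus saline, *Cd5l* at 7.94, 7.18 and -0.76, and *Lpl* and *Cd36* stay near 0.

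Counted over the 10 genes, 7 had a fold change above 0 in saline minus young and 5 had groups that did not overlap, beside 4.51% of all tested genes that were higher without overlap. That contrast chose the set, and the count is a description. In MCC950 minus saline, 2 of 10 genes were lower by the edgeR test (*Gpnmb* and *Cd9*), beside 4.86% of all tested genes, and 0 were higher, beside 11.9%. At an unadjusted p under 0.05, *Fabp5* was the other gene that was lower and still 0 were higher, and DESeq2 and limma-voom also called 0 of the 10 higher. By total counts *Lpl* was called higher (log2 0.47, SE 0.187, adjusted p = 0.0462, edgeR), where the median of all tested genes was 0.425. No gene of the 10 was lower with MCC950 without overlap, beside 0.586% of all tested genes.

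In MCC950 minus young, 5 of 10 genes were higher (*Gpnmb*, *Cd5l*, *Trem2*, *Apoe* and *Lgals3*), beside 21.8% of all tested genes, and *Cd9* alone was lower, beside 16.5%. *Gpnmb* and *Cd5l* were higher without overlap in that comparison, beside 3.28% of all tested genes. The median log2 difference over the 10 genes was 1.098 in saline minus young, -0.26 in MCC950 minus saline and 0.59 in MCC950 minus young, and over all tested genes it was 0.02, 0.00 and 0.08.

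Per kilobase of exon, which allows levels of different genes to be compared, the order of the 10 genes in saline mice began with *Apoe* at a mean of 603 CPM per kilobase. *Lgals3* followed at 58.0, *Lpl* at 45.4 and *Cd9* at 19.9 CPM per kilobase. *Cd5l* (8.25) stood near *Trem2* (9.47) there, while in young mice *Cd5l* stood at 0.0418 and *Trem2* at 2.93 CPM per kilobase. *Gpnmb* stood at 1.64 CPM per kilobase in saline, 0.603 in MCC950 and 0.0745 in young mice.

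The summed level of the 15 macrophage and myeloid markers ran from 694 through 2220 to 3424 CPM in young, from 2504 through 4041 to 5442 CPM in saline and from 1502 through 3146 to 5162 CPM in MCC950 mice. Of the 15 markers, 5 passed in saline minus young and each of them was higher, beside 12.2% of all tested genes that were higher and 12.4% that were lower. The strongest were *Aif1* (log2 1.35, SE 0.332, adjusted p = 0.00534, edgeR), *Itgam* (1.28, SE 0.305, adjusted p = 0.00435) and *Lyz2* (1.06, SE 0.354, adjusted p = 0.0333). In saline minus young, DESeq2 called 8 of the 15 higher and limma-voom 7, with 0 lower, beside 2119 and 2005 of all 16377 tested genes called higher. In MCC950 minus young, 4 of the 15 were higher and 0 lower with edgeR, beside 21.8% and 16.5% of all tested genes. Between MCC950 and saline, 0 of the 15 passed in either direction with edgeR, DESeq2 or limma-voom, or at an unadjusted p under 0.05.

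As an example, *Gpnmb* and *Cd5l* are given for 1 library of each group at a similar macrophage marker level. Young replicate 4 had a marker sum of 3424 CPM with 0.146 CPM of *Gpnmb*, the lowest of the young libraries, and 0.109 CPM of *Cd5l*. Saline replicate 1 had a marker sum of 3407 CPM with 4.68 CPM of *Gpnmb* and 10.6 CPM of *Cd5l*. MCC950 replicate 4, at 3304 CPM, had 1.62 CPM of *Gpnmb* and 13.1 CPM of *Cd5l*. These 3 libraries were picked after their values were seen, because their marker sums are close, and single libraries do not stand for their groups.

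Expressed as a percentage of the macrophage marker sum, *Gpnmb* had a median of 0.0188% in young (0.00426% to 0.0323%), 0.245% in saline (0.0606% to 0.317%) and 0.0751% in MCC950 mice (0.0323% to 0.169%). *Cd5l* had a median of 0.00160% in young, 0.257% in saline and 0.218% in MCC950 mice. *Trem2* stood closer together, at medians of 0.140%, 0.282% and 0.245%, and its saline range (0.206% to 0.347%) lay above the young range (0.0897% to 0.193%). *Lgals3* was at 2.66%, 2.58% and 2.61%, and *Mmp12* at 1.39%, 1.22% and 1.23%, so that their group medians were nearly level on this scale. *Apoe* had medians of 17.76%, 28.41% and 30.19%, and *Fabp5* of 0.01257%, 0.0243% and 0.01635%. *Lpl* (8.65%, 5.255% and 6.539%), *Cd36* (2.821%, 1.246% and 1.675%) and *Cd9* (1.204%, 0.6247% and 0.6788%) went the other way, with the highest median in young mice.

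**Figure D3:**
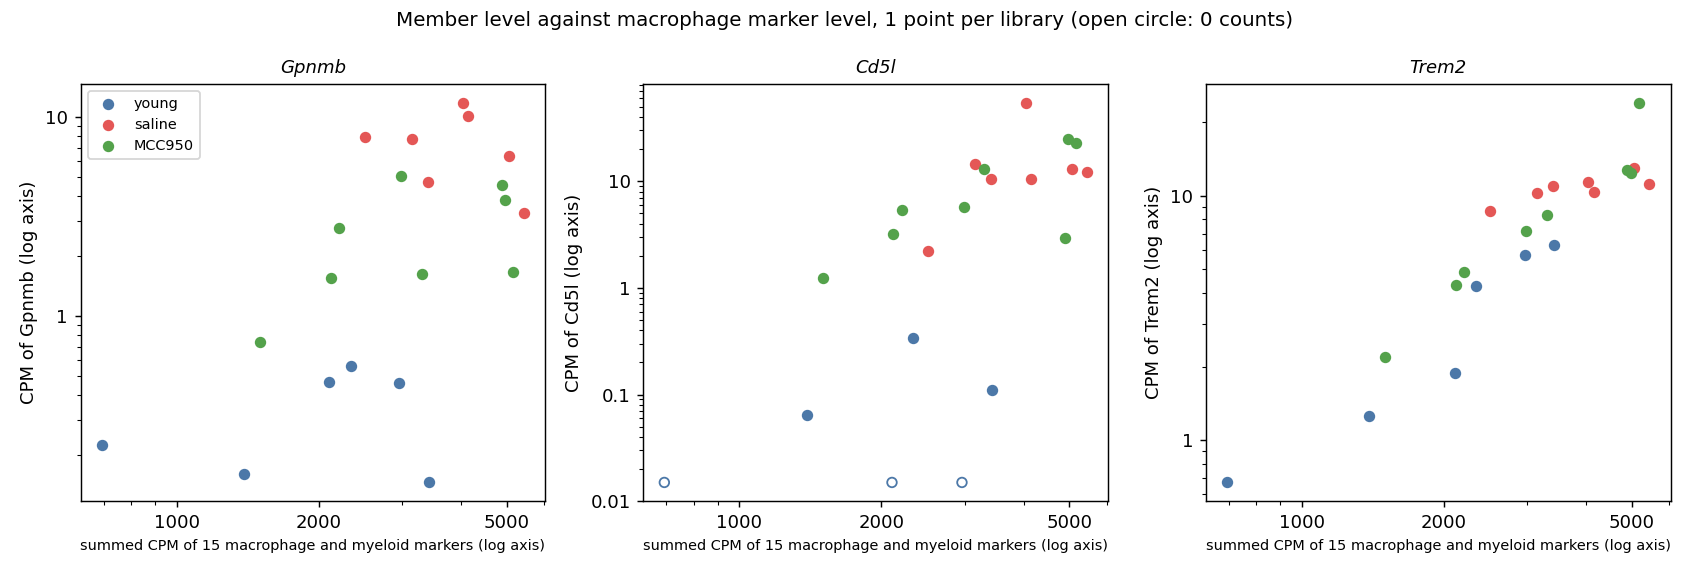
CPM of *Gpnmb*, *Cd5l* and *Trem2* against the summed CPM of 15 macrophage and myeloid markers, both on log axes, with 1 point per library. In all 3 panels every young library lies below every saline library, in the contrast that chose the set. *Trem2* was at 0.672 CPM in the young library with the lowest marker sum (694 CPM) and at 6.27 CPM in that with the highest (3424 CPM). Its saline minus young log2 difference was 1.72, and 0.74 (SE 0.226) with the macrophage marker score in the fit.

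With the macrophage marker score as a term of the fit, the same 2 genes were lower in MCC950 than in saline mice. *Gpnmb* then differed by -1.39 (SE 0.323, adjusted p = 0.00646, edgeR) and *Cd9* by -0.33 (SE 0.0771, adjusted p = 0.00633). In MCC950 minus young, *Gpnmb* stood at 2.72 (SE 0.507, adjusted p = 0.000230) and *Cd5l* at 5.90 (SE 1.04, adjusted p = 0.000140). *Trem2* stood at 0.64 in place of 1.54 (SE 0.215, adjusted p = 0.0204), *Apoe* at 0.69 in place of 1.59 (SE 0.191, adjusted p = 0.00601), and *Lgals3*, at 0.29 (SE 0.145, adjusted p = 0.107), no longer passed.

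With the proximal tubule marker score as the term, *Gpnmb* differed between MCC950 and saline mice by -1.10 (SE 0.426, adjusted p = 0.129, edgeR), and no longer passed the threshold. In the other 32 of 33 alternative settings its adjusted p was under 0.05. Of the 10 proximal tubule markers, 6 passed between MCC950 and saline mice and each of them was higher with MCC950, beside 11.9% of all tested genes. The tubule marker sums ran from 2553 to 7767 CPM in MCC950 and from 1843 to 4217 CPM in saline libraries. The part of tubule cells in the *Gpnmb* result was not tested further. *Cd9* kept its call in that fit (-0.35, SE 0.0997, adjusted p = 0.0439).

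GPNMB is also a melanocyte protein, and of 5 melanocyte markers *Tyr* and *Tyrp1* were at 0 in every library and the sum of all 5 was at most 0.730 CPM in young, 0.742 CPM in saline and 0.407 CPM in MCC950 mice. The 8 adipocyte markers summed to 113 to 271 CPM in young, 73.9 to 275 CPM in saline and 209.6 to 591 CPM in MCC950 mice. Of them, *Cfd* and *Adipoq* were at 0 in all young libraries, and 6 of the 8 were too low to be tested. Of the other 2, *Plin4* had medians of 2.94 CPM in young, 1.70 in saline and 2.22 in MCC950 mice, and *Pck1*, an enzyme of glucose synthesis that the proximal tubule also makes, had medians of 160.4, 179 and 328 CPM. *Pck1* was higher in MCC950 than in saline mice (log2 1.19, SE 0.294, adjusted p = 0.0117, edgeR). The B and plasma cell markers, 8 genes, summed to 132 to 257 CPM in young, 498 to 677 CPM in saline and 205 to 801 CPM in MCC950 mice, and their part in the *Cd5l* result was not tested.

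The gene lists from here on are read beside the shares of all tested genes in the edgeR fit without covariates. Those shares were 12.2% higher and 12.4% lower in saline minus young. In MCC950 minus young they were 21.8% and 16.5%, and in MCC950 minus saline 11.9% and 4.86%. Of 10 genes of the TREM2 receptor complex and its signalling, which pass the receptor's signal on through SYK, 6 passed in saline minus young and each of them was higher, with a median log2 difference of 0.74. *Ms4a4a*, a membrane protein tied to TREM2 shedding, was higher by 1.78 (SE 0.585, adjusted p = 0.0299, edgeR), *Hcst*, the adaptor DAP10, by 1.40 (SE 0.298, adjusted p = 0.00190), and the exchange factor *Vav1* by 0.99 (SE 0.254, adjusted p = 0.00699). In MCC950 minus young, 5 were higher and 1 lower, and 3 were higher and 1 lower without MCC950 replicate 8. With the macrophage marker score in the fit, 2 were higher and 1 lower in each of these comparisons. *Vav3* alone of the 10 passed between MCC950 and saline (log2 -0.37, SE 0.0721, adjusted p = 0.00360), and it stood at 0.07 when libraries were scaled by total counts.

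Of 20 other lipid-associated macrophage genes, 12 were higher and 1 lower in saline than in young mice, with a median log2 difference of 0.61. The cystatin *Cst7* was higher by 2.22 (SE 0.538, adjusted p = 0.00485, edgeR) at a mean of 0.495 CPM in saline and 0.103 CPM in young mice. *Capg*, an actin capping protein, was higher by 1.14 (SE 0.175, adjusted p = 0.000111), and the lipid droplet coat protein *Plin2* by 1.12 (SE 0.154, adjusted p = 4.32e-05). In MCC950 minus young, 10 were higher and 2 lower, among them *Lgals1* (1.29, SE 0.247, adjusted p = 0.000452) and the lysosomal tetraspanin *Cd63* (0.99, SE 0.156, adjusted p = 7.71e-05).

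Between MCC950 and saline mice, 2 of the 20 genes were higher and 2 lower, and the lipid-binding *Fabp4* (log2 -0.71, SE 0.224, adjusted p = 0.0349, edgeR) and *Capg* (-0.47, SE 0.156, adjusted p = 0.0418) were the lower ones. Both lost the call by total counts, at -0.31 and -0.01, and without MCC950 replicate 8, at -0.63 (adjusted p = 0.0619) and -0.48 (adjusted p = 0.0546). *Cd63* was higher, by 0.49 (SE 0.145, adjusted p = 0.0262). The median of the 20 genes was -0.17, and 0.30 by total counts.

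In the neighbouring lipid pathways, fewer genes passed. Of 12 tested genes of cholesterol efflux and the liver X receptors, 3 were higher and 1 lower in saline than in young mice. Over all tested genes the shares were 12.2% and 12.4%. *Apoc2*, a lipoprotein cofactor of LPL, was higher in saline by 2.48 (SE 0.505, adjusted p = 0.00134, edgeR), from a mean of 0.404 to 2.21 CPM. The phospholipid transfer protein *Pltp* rose by 1.26 (SE 0.314, adjusted p = 0.00594), and *Nr1h3*, which encodes liver X receptor alpha, by 0.97 (SE 0.185, adjusted p = 0.000769). *Rxra*, its partner receptor, was the single gene of the 12 that passed between MCC950 and saline (0.40, SE 0.0909, adjusted p = 0.00820). Without MCC950 replicate 8, *Pltp* (-0.82, SE 0.242, adjusted p = 0.0304) and *Abca1* (-0.55, SE 0.149, adjusted p = 0.0205) also passed, both lower, and by total counts 5 of the 12 were higher.

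Of 16 genes of fatty acid and lipoprotein uptake, 4 were higher and 1 lower in saline than in young mice. Among all tested genes 12.2% were higher and 12.4% lower. The scavenger receptor *Msr1* was higher by 1.42 (SE 0.335, adjusted p = 0.00401, edgeR), *Olr1*, a receptor for oxidized lipoprotein, by 1.11 (SE 0.272, adjusted p = 0.00528), and the receptor *Lrp1* by 0.90 (SE 0.230, adjusted p = 0.00699). *Olr1* was lower in MCC950 than in saline mice, by -0.74 (SE 0.235, adjusted p = 0.0343), and at -0.33 by total counts it no longer passed. In that comparison 1 of the 16 genes was higher and 2 were lower, and without MCC950 replicate 8 none passed, where *Olr1* stood at -0.73 (adjusted p = 0.0527), *Fabp4* at -0.63 (adjusted p = 0.0619) and *Slc27a4* at 0.23 (adjusted p = 0.0522).

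Of 12 genes for MITF and the TFE factors with their lysosomal and osteoclast-type targets, a group in which MITF is a known regulator of *Gpnmb*, 4 were higher and 2 lower in saline than in young mice, and 2 were higher and 0 lower with the macrophage marker score in the fit. The tartrate-resistant phosphatase *Acp5* was higher by 1.36 (SE 0.223, adjusted p = 0.000209, edgeR) and cathepsin K, *Ctsk*, by 1.27 (SE 0.292, adjusted p = 0.00337). *Tfec* was higher in MCC950 than in saline mice (1.15, SE 0.206, adjusted p = 0.00199), opposite in direction to *Gpnmb*. *Glb1*, lysosomal beta-galactosidase, was the other gene that passed there, at 0.50 (SE 0.148, adjusted p = 0.0258).

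Of the relatives and inhibitors of *Mmp12*, 3 of 10 tested genes were higher and 2 lower in saline than in young mice. All tested genes together gave 12.2% higher and 12.4% lower. *Mmp9*, gelatinase B, was higher by 2.43 (SE 0.457, adjusted p = 0.000680, edgeR), and with the macrophage marker score in the fit 1 of the 10 was higher and 1 lower, with a median of 0.056 in place of 0.53. None of the 10 passed between MCC950 and saline with edgeR (2 at an unadjusted p under 0.05, and 1, lower, by DESeq2 and by limma-voom). Of 11 tetraspanins and galectins, the families of *Cd9* and *Lgals3*, 3 were higher and 1 lower in saline than in young mice, to be read beside the same shares. *Cd82* was lower in MCC950 than in saline mice by -0.32 (SE 0.0594, adjusted p = 0.00278), and stood at 0.11 by total counts, as *Cd9* did at 0.12.

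Of 11 tested receptors and bridges for apoptotic cells, 2 were higher and 1 lower in saline than in young mice. Those counts are near the shares of all tested genes, 12.2% and 12.4%. With the macrophage marker score in the fit 5 passed, each of them lower. *Havcr1*, also a marker of injured tubule, was higher by 1.67 (SE 0.469, adjusted p = 0.0125, edgeR), and the bridging protein *Mfge8* was lower by -0.48 (SE 0.104, adjusted p = 0.00217). Between MCC950 and saline 0 passed with edgeR, DESeq2 or limma-voom, and 2 did at an unadjusted p under 0.05.

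Resident macrophages are the cells known to make *Cd5l*. Of 10 tested genes of these cells, 4 passed in saline minus young and each of them was higher, beside 12.2% of all tested genes. DESeq2 called 4 higher and 1 lower, and limma-voom called 3 higher and 0 lower. With the macrophage marker score in the fit, 4 were higher and 0 lower, and the median log2 difference was -0.10 in place of 0.89. *Spic*, a transcription factor of red pulp macrophages, was higher by 2.07 (SE 0.391, adjusted p = 0.000719, edgeR), and *Fcna*, ficolin A, by 4.13 (SE 0.862, adjusted p = 0.00160). *Vsig4*, a complement receptor, had 0 counts in all 6 young libraries, 127 counts over the saline and 438 over the MCC950 libraries, 223 of them in MCC950 replicate 8.

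MCC950 replicate 8 stood apart for these genes. *Folr2* was at 82.9 CPM there and at a median of 1.06 CPM over the MCC950 group, *Fcna* at 42.0 against a median of 4.74, and *Timd4* at 10.8 against a median of 0.320 CPM. *Marco* was at 5.80, *Vsig4* at 4.77 and *Lyve1* at 8.92 CPM in this library. The Kupffer cell lectin *Clec4f* had 31 counts in it and 0 in each of the other libraries. Of 14 liver genes looked at after these values were seen, 6 had 0 counts in this library, among them *Cps1*, *Tat* and *Serpina3k*, and in none of the 14 was it the highest MCC950 library. Those 6 genes were at or near 0 in all libraries, at most 0.0787 CPM, so their 0 counts say little about this one. *Alb*, albumin, was at 1.476 CPM there and at 1.523 to 3.101 CPM in the other MCC950 libraries. The summed level of 7 T cell markers was also highest there within the MCC950 group, at 71.9 CPM against a group median of 11.9. What sets this library apart, a liver source included, was not tested. *Folr2* (log2 3.37, SE 1.06, adjusted p = 0.0340, edgeR) and *Lyve1* (3.48, SE 1.07, adjusted p = 0.0306) passed between MCC950 and saline with this library, and without it they stood at -0.19 (adjusted p = 0.757) and 0.90 (adjusted p = 0.359). Without it, 4 of the 10 genes were higher in MCC950 than in young mice, and 7 were with it. *Cd5l* had 22.9 CPM in this library, under the 24.9 CPM of replicate 6, and stood at 6.89 in MCC950 minus young without it (SE 1.12, adjusted p = 0.000142).

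**Figure D4:**
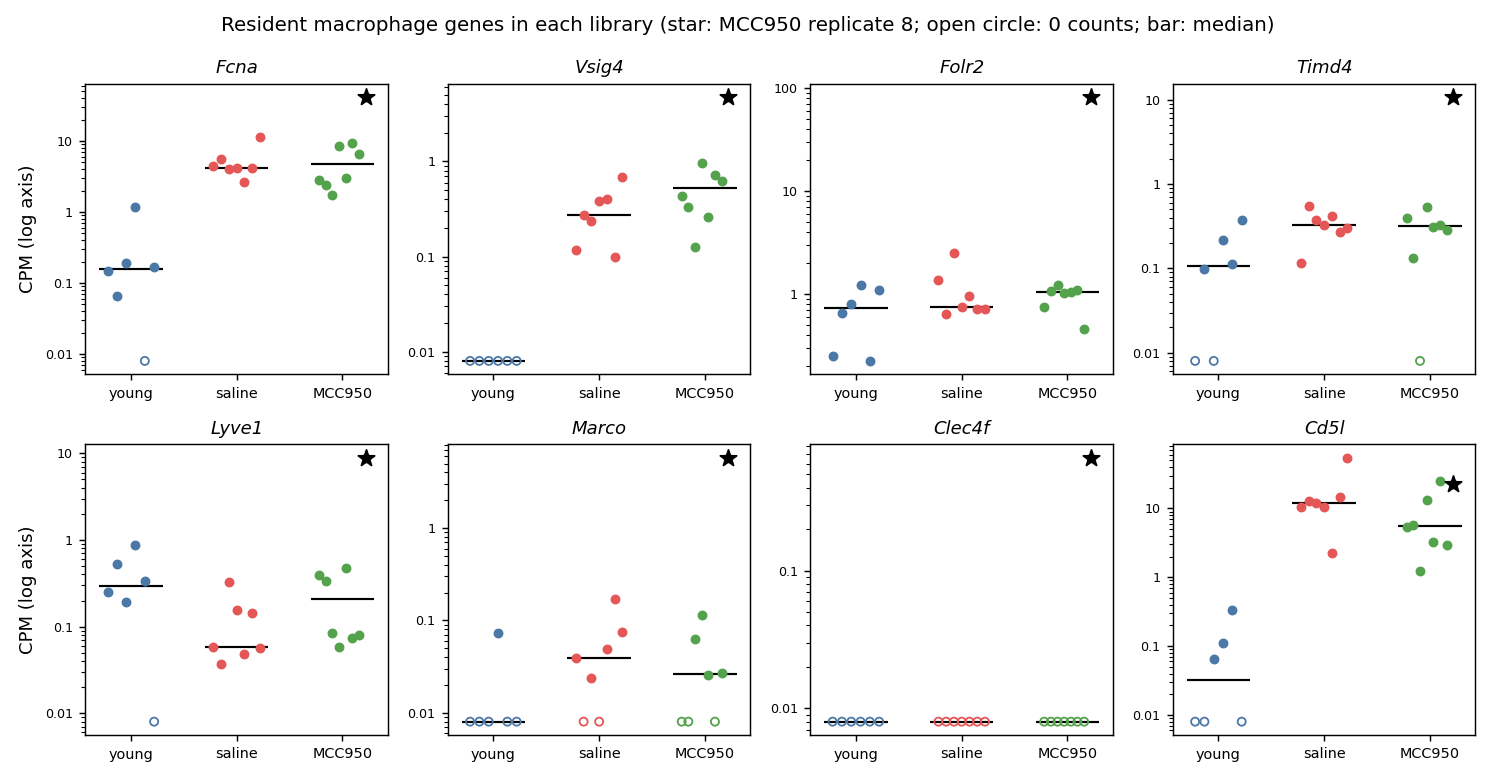
CPM of 7 resident macrophage genes and of *Cd5l* on log axes, with 1 point per library, a bar at the group median, open circles for libraries with 0 counts and a star for MCC950 replicate 8. The star is the highest point for all genes but *Cd5l*, and *Clec4f* has counts in that library alone.

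Genes of IgM, the carrier of CD5L in plasma, were also higher in saline than in young mice. Library by library, they went with *Cd5l* in some libraries and not in others. *Ighm*, the IgM heavy chain, ran from 135 through 191 to 362 CPM in young, from 2542 through 3646 to 5138 CPM in saline and from 338 through 929 to 6416 CPM in MCC950 mice. Saline replicate 7 had the highest saline *Cd5l*, at 54.6 CPM, and the lowest saline *Ighm*, at 2542 CPM. The same library had the highest saline *Jchain*, at 421 CPM. MCC950 replicate 7 had the highest *Ighm*, at 6416 CPM, with 2.95 CPM of *Cd5l*. MCC950 replicate 3 was the lowest of its group for both, at 338 CPM of *Ighm* and 1.25 CPM of *Cd5l*. MCC950 replicate 6 had 4826 CPM of *Ighm* and 24.9 CPM of *Cd5l*. Of 5 IgM carrier genes, 3 passed in saline minus young and each of them was higher. *Ighm* was higher by 4.15 (SE 0.636, adjusted p = 0.000111, edgeR) and the joining chain *Jchain* by 3.64 (SE 0.486, adjusted p = 3.40e-05). Neither passed between MCC950 and saline with edgeR, while limma-voom called both lower with MCC950. *Fcamr*, a receptor for IgM and IgA, was higher in MCC950 than in saline mice (log2 0.64, SE 0.183, adjusted p = 0.0220, edgeR).

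The genes nearest to *Gpnmb* in pattern were *Ighm*, the protease inhibitor *Slpi*, the light chain *Iglc2*, coagulation factor *F10* and *Mzb1*. Nearness was the mean absolute difference of centred log2 CPM over the 21 libraries, among 12263 genes, and it was 0.724 for *Ighm* and 0.794 for *Mzb1*. *Trem2* stood at 0.992 from *Gpnmb* and *Cd5l* at 1.58 on this measure. The genes nearest to *Cd5l* were *Fcna* at 1.40, the light chain segments *Igkv6-20* and *Igkv4-63* at 1.495 and 1.524, *Slpi* at 1.63 and *Igkv5-39* at 1.64. These values describe likeness over libraries that share their groups and carry no test.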

How the data were processed

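mRNA of the nephrin-selected fraction was sequenced in 21 libraries, 1 per mouse, grouped by the labels. The authors trimmed the reads with Trim Galore, aligned them to mm10 (GRCm38) with Bowtie2 and deposited whole read counts per gene from featureCounts. Bowtie2 places no read across an intron, and the settings for strand and repeated alignments are not given in the sources used here. A deposited normalized table with 20 of the libraries was not used. RefSeq symbols were found for 25275 of 27179 gene numbers, and all 10 genes matched.

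The quasi-likelihood F test of edgeR 4.0.16 (R 4.3.3) was run on the counts of all 3 groups in one fit, after TMM scaling and filterByExpr, with Benjamini-Hochberg adjusted p under 0.05 as the threshold, after tests on simulated data. DESeq2 1.42.0, the tool of the study, and limma 3.58.1 (voom) were alternatives, beside other scalings, filters, covariates, equal depth and libraries left out in turn. Fold changes are fitted log2 values, and CPM values are on TMM-scaled sizes. Exon lengths came from GENCODE basic transcripts, and promoters from RefSeq.

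The 10 genes, the gene lists and the marker lists were chosen with earlier results of these data known, and a few genes, such as *Fabp4* and *Jchain*, stand in more than 1 list. Named from each list were the genes past the threshold, at most 3 by absolute fold change per comparison, and for *Gpnmb* and *Cd5l* the 5 nearest genes. Chi-square over degrees of freedom was at least 16.5 between libraries of a group, so no library repeats another. Group medians of depth were 29867773.5, 64842206 and 46642389.5 counts in young, saline and MCC950 mice, and depth limits *Gpnmb*, *Cd5l* and *Fabp5* in young libraries, where at most 14 counts of each were found.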

Additional observations from a re-analysis of the deposited data

Results flagged for a closer look

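Of 30 groups of 1 gene each, 3 held a library that lay far from the rest of its group by Dixon's ratio, where chance marks about 1 in 20 groups. *Cd5l* stood at 0.337 CPM in young replicate 5, and the next highest young library had 0.109 CPM. *Cd5l* stood at 54.6 CPM in saline replicate 7, and the next highest saline library had 14.5 CPM. *Apoe* stood at 3281 CPM in MCC950 replicate 8, and the next highest MCC950 library had 1704 CPM.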

How the results depend on the processing

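*Gpnmb* was lower in MCC950 than in saline mice in 32 of 33 alternative settings, and the exception was the proximal tubule score as a covariate (adjusted p = 0.129). Its log2 difference ran from -1.63 to -0.98. *Cd9* was lower in 33 of 34, and the exception was scaling by total library size (0.12). *Cd5l* was higher in MCC950 than in young mice in 32 of 33 settings and missed the threshold with limma-voom (adjusted p = 0.0869). *Lgals3* was higher there in 25 of 34 settings. The causes of these changes were not tested. *Gpnmb*, *Cd5l* and *Fabp5* were left out by the stricter filter, which asks 10 counts of every library.

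Over all genes, saline minus young gave 4034 calls, 1636 by total library size and 12 with the podocyte score as a covariate. MCC950 minus saline gave 2753 calls, 6456 by total library size, 884 with the proximal tubule score, and 1523 to 3295 with 1 library left out (1523 without saline replicate 4 and 1745 without saline replicate 3). MCC950 minus young gave 6277 calls and 334 with the podocyte score. Of the 10 genes, the calls in MCC950 minus saline went from 2 to 1 under the filter of 10 counts and with the proximal tubule score, and in MCC950 minus young from 6 to 2 with the podocyte score, where *Gpnmb* and *Cd5l* were the genes called.

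Values that changed sign in MCC950 minus saline came mainly from differences that had not passed. By total library size, *Trem2* was 0.26, *Lgals3* 0.24 and *Mmp12* 0.046. With the proximal tubule score, *Cd5l* was 0.75, *Trem2* 0.59, *Lgals3* 0.026, *Mmp12* 0.20, *Lpl* -0.10 and *Cd36* -0.24. *Apoe* was -0.19 with limma-voom, and between -0.24 and 0.30 with 1 library left out. *Lpl* was -0.0015 with RLE size factors and with DESeq2, -0.0021 with only the groups compared, -0.025 with the macrophage score, -0.023 with the podocyte score, -0.037 at equal depth, and -0.048 to 0.068 with 1 library left out. *Cd36* was -0.016 with RLE size factors and with DESeq2, -0.0039 under the filter of 10 counts, -0.019 with limma-voom, -0.017 with only the groups compared, -0.042 at equal depth, and -0.10 to 0.073 with 1 library left out. In MCC950 minus young, *Lpl* was 0.14 and *Cd36* 0.14 by total library size, and *Mmp12* was -0.04 with the macrophage score.

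The labels do not say that replicate numbers pair the mice, and the main fit used no pairing. The correlation of same-numbered libraries ran from -0.144 to 0.335 in MCC950 and saline mice. It ran from -0.061 to 0.347 in saline and young and from -0.013 to 0.401 in MCC950 and young mice. These values cannot show whether same-numbered mice shared a batch. With a replicate block, 4107, 3285 and 6365 genes were called in saline minus young, MCC950 minus saline and MCC950 minus young, *Apoe* was -0.48 and *Cd36* -0.14 in MCC950 minus saline, and the block changed no call of the 10 genes.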
